A study of Mus musculus with 10 samples.

Results

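The collagen family was followed through the differentiation of mouse embryonic stem cells toward neuromesodermal progenitors, with and without Gdf11. The 40 members were the collagen genes Col1a1 to Col27a1 given by name, out of 21900 protein-coding genes. Each was measured as the accessibility of the chromatin nearest to it. A peak region was given to the nearest protein-coding gene span within 50000 bp, and the counts of all regions of a gene were summed. This gave 743 regions for the collagens out of 246799 in all, of which 571 lay inside a collagen span. Col10a1 had 1 region, with at most 0.915 CPM (counts scaled to a common library total) in any library, and was not tested, which left 39 members out of 19044 genes tested.

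The cells were ES-Bruce4, a wild type C57BL/6 embryonic stem cell line, so all groups share 1 line, and the stem cells had been kept on embryo fibroblasts and depleted of these before plating. All cultures received bFgf at 10 ng/ml from the start, and CHIR99021, an activator of Wnt signalling, at 5 µM was added on day 2. Libraries were made by ATAC-seq, in which a transposase cuts open chromatin, from 50000 cells each, on day 2 (labelled as epiblast stem cells) and on days 3, 6 and 7 (labelled as neuromesodermal progenitors). A second day 7 group had received 50 ng/ml of human Gdf11, a TGF-beta family ligand, for 24 h from day 6. Each of the 5 groups had 2 libraries, with totals between 7150334 and 12335735 counts over the regions. Whether a group's libraries come from different cultures is not stated in the labels, so p-values measure the spread between these libraries, which may be technical. In each group the libraries differed by more than counting error (chi-square per degree of freedom between 2.35 and 3.55), so no library's counts were a copy of another's; this does not tell separate cultures from repeat preparations of 1 culture.

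Collagens are triple-helical proteins of the extracellular matrix. Fibrillar collagens build the fibres of cartilage, bone, skin and tendon, type IV collagens build the sheet of basement membranes, fibril-associated (FACIT) collagens coat fibres, and transmembrane collagens sit on the cell surface. In the embryo, basement membranes surround epiblast, neural tube and somites, and Col2a1 is a classical product of the notochord and of cartilage, under the control of Sox9. TGF-beta family signals act through Smad factors and are known regulators of matrix genes in many cell types. Accessibility is not expression, and a region assigned by distance need not act on the gene.

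Start sites were the first place examined. RefSeq promoter windows on build GRCm38.p6 (mm10), from 250 bases before to 50 bases after a start, were found for 31 of the 40 members, 34 windows in all. A region covered the start of 26 of these 31 members, and in 14 the start region was a peak in all 10 libraries. Start-site regions of 7 members were called in at least 1 comparison, by the edgeR test described with the comparisons. Their promoters are shown because these are the collagen starts that were called. These were 26.9% of the 26 collagen start-site regions tested, beside 20.8% of the 12402 regions over any start in the same table, so the share is near the background. Capitals mark the letters of the GC box (GGGCGG), the CCAAT box (CCAAT) and the TATA box (TATAAA) on either strand, wherever they fall in the window. Each sequence is written 5′ to 3′ on the strand of its gene. More open by day 3 was the start of Col25a1 (chr3:130180595-130180894, plus strand), and by day 6 those of Col11a1 (chr3:114030290-114030589, plus strand) and Col3a1 (chr1:45311288-45311587, plus strand).
Col25a1: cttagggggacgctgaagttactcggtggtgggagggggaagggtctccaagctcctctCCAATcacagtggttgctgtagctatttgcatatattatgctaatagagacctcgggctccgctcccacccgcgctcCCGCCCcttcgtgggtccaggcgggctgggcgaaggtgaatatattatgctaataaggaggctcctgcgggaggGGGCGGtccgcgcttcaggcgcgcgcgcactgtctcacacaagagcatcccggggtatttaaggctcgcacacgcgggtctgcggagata
Col11a1: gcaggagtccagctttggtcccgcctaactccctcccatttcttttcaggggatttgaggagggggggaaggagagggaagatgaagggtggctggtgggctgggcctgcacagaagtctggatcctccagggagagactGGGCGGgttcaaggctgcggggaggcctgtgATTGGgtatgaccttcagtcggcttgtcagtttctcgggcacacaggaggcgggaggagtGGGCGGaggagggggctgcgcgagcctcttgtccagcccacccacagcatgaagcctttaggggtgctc
Col3a1: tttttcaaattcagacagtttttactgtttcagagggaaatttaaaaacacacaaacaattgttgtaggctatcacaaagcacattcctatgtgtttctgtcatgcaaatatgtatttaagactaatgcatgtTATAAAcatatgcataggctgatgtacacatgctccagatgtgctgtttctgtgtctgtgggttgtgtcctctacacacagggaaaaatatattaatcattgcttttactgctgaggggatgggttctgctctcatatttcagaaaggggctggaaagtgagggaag
Less open by day 6 were the starts of Col1a2 (chr6:4505368-4505667, plus strand) and Col5a3 (chr9:20815018-20815317, minus strand), by day 7 that of Col15a1 (chr4:47207762-47208061, plus strand), and with Gdf11 against day 6 that of Col13a1 (chr10:61979059-61979358, minus strand).
Col1a2: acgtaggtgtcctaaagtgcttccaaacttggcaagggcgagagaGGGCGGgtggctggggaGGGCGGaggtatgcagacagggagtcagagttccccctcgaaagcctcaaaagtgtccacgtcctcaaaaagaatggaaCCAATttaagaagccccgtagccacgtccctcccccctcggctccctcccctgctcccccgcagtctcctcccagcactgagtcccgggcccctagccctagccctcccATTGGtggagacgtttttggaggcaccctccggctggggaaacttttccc
Col5a3: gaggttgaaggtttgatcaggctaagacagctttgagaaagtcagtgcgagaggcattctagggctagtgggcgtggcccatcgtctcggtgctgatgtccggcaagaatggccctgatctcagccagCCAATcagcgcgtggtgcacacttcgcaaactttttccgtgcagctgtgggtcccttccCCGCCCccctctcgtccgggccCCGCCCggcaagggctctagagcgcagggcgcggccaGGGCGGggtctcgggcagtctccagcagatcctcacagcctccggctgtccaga
Col15a1: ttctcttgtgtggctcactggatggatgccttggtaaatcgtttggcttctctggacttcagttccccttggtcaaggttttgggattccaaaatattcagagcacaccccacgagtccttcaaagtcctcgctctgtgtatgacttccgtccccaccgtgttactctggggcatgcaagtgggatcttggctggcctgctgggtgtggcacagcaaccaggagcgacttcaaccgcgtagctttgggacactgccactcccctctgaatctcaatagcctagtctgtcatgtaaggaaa
Col13a1: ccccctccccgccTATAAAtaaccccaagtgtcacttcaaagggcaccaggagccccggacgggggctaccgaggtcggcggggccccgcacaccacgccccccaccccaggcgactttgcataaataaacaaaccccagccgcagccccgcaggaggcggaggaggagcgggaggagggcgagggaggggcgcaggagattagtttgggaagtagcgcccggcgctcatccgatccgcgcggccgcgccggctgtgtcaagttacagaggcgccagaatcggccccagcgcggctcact
The windows of Col25a1, Col11a1 and Col1a2 each held 2 GC boxes and that of Col5a3 held 3. Those of Col3a1, Col15a1 and Col13a1 held none. The letters TATAAA occurred in Col3a1 and Col13a1, in both well before the start, and whether they act as a TATA box was not tested. GC content ran from 37.67% in Col3a1 to 68% in Col13a1.

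Over all 34 member windows, GGGCGG was found in 58.82%, against 35.66% of the 32851 windows in the table, and the Sox motif ACAAT in 2.94%, against 31.02%. The Smad motif CAGAC was in 52.94% of member windows and 49.59% of all, the Smad palindrome GTCTAGAC in 0% and 0.213%, and the CCAAT box in 35.29% and 37.41%. TATAAA was in 14.71% and 13.62%, the Tcf/Lef motif CTTTGA in 26.47% and 16%, and the AP-1 motif TGANTCA in 2.94% and 7.81%. Both strands were searched, motif matches could overlap, and these shares are descriptions of letters in the windows. No test of these shares was made.

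At these starts the values were as follows. The Col25a1 start region (chr3:130180280-130180953) gave 24.5 and 21.2 CPM on day 2 and 40.3 and 39.8 on day 3, a log2 change of 0.81 ± 0.16 (SE; adjusted p = 0.000216), and then stayed between 31.6 and 43.2 CPM. The Col11a1 start region (chr3:114030031-114030730), the most open of the starts matched, gave 56.7 and 59.3 CPM on day 3 and 74.3 and 83.6 on day 6 (log2 change 0.44 ± 0.14, adjusted p = 0.0217). The Col3a1 start region (chr1:45311444-45311771) gave 0.679 and 0.289 CPM on day 3 and 3.2 and 3.83 on day 6 (log2 change 2.69 ± 0.52, adjusted p = 0.000108). None of these 3 pairs of groups overlapped. With 2 libraries a group such separation adds little, here and below. From day 3 to day 6, 24 of the 39 tested collagens were apart as genes, though 26 were not called. The share over all genes was not counted. The Col1a2 start region (chr6:4505182-4505880) went the other way, from 11.1 and 9.96 CPM on day 3 to 5.11 and 6.16 on day 6 (log2 change -0.93 ± 0.27, adjusted p = 0.0115). Here too the groups stood apart. That of Col5a3 (chr9:20814976-20815317) fell from 11.4 and 9.96 to 4.0 and 6.02 CPM (log2 change -1.14 ± 0.27, adjusted p = 0.002). The Col15a1 start region (chr4:47207942-47208688) fell from 4.63 and 6.29 CPM on day 6 to 2.07 and 2.21 on day 7 (log2 change -1.33 ± 0.37, adjusted p = 0.0494). DESeq2 called no member region lower in that comparison, so this call was lost there. Results without single libraries are given below for genes and for counts of regions, not for each start. With Gdf11, the Col13a1 start region (chr10:61978972-61979349) was at 5.49 and 6.35 CPM, below its 12.0 and 9.85 on day 6 (log2 change -0.90 ± 0.26, adjusted p = 0.0474) and below its 8.73 and 12.1 on day 7 without passing the test there (adjusted p = 0.0817). Col4a1 and Col4a2, which code for the common type IV chains and are transcribed away from each other, share 1 start region (chr8:11312434-11313024), a peak in all 10 libraries at 6.79 to 12.6 CPM that was called in no comparison.

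**Figure D1:**
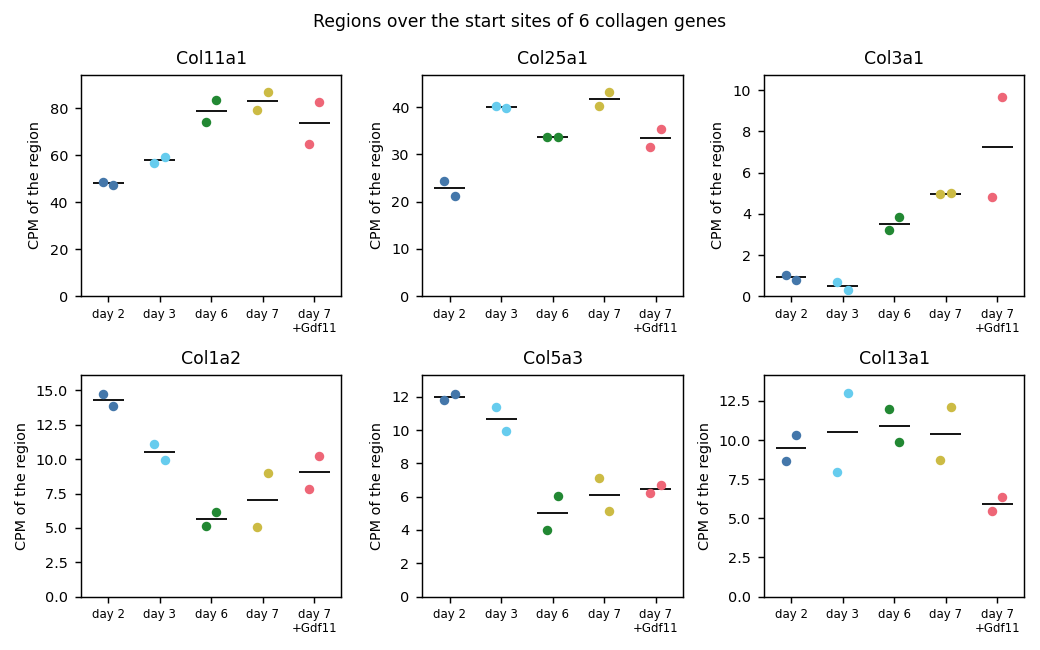
Accessibility of the regions over the start sites of 6 collagen genes, in CPM per library (vertical axis) for the 5 groups (horizontal axis); points are libraries and lines are group means. Col11a1 and Col3a1 were higher on day 6 than on day 3, Col1a2 and Col5a3 lower, Col25a1 rose between day 2 and day 3, and Col13a1 was lowest with Gdf11.

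Levels ranged widely over the family. The mean over the 10 libraries ran from 0.211 CPM in Col10a1 to 195 in Col19a1, with a median of 36.1, and a member had between 1 and 48 regions (Col18a1 had the most), with a median of 15.5. Per kb of region, Col2a1 was the most open at 27.3 CPM per kb, then Col19a1 at 24.8, Col11a1 at 22.3, Col25a1 at 12.95 and Col1a1 at 12.8. At the other end were Col10a1 at 2.11, Col7a1 at 5.55 and Col4a3 at 5.76 CPM per kb. Few regions were open throughout: 74 were peaks in all 10 libraries and 297 in 1 library. In 10 of the 31 members with a promoter window the most open region lay over a start site. The level of Col19a1 rested on 1 region outside its span (chr1:24612491-24612904, 24569 bp away), which gave 53.57% of its CPM, between 85.6 and 126 CPM per library, and was called in no comparison. The other regions of Col19a1 summed to between 65.9 and 116 CPM. Whether the reads at the far region also match other places, such as mitochondrial DNA, was not checked. The high rank of Col19a1 may therefore not reflect the chromatin of the gene.

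Genes and regions were compared with edgeR's quasi-likelihood F test over all genes or all regions, with Benjamini-Hochberg adjustment over all of them and a threshold of 0.05. Between day 2 and day 3, 7 collagens rose and 5 fell, where 12.3% of all genes were called higher and 10.4% lower. Day 6 against day 3 gave 10 collagens higher and 3 lower, against 9.47% and 10.7% of all genes. Between day 6 and day 7 without Gdf11, 3 rose and none fell by the edgeR test (at an unadjusted p under 0.05 the counts were 5 and 0, and DESeq2 also called none lower), against 3.58% and 0.677% of all genes. With Gdf11 against day 7 the counts were 4 higher and 7 lower, against 2.05% and 11.2%, and with Gdf11 against day 6 they were 2 and 1, against 0.614% and 1.27%. Median log2 changes of the 39 members stayed near those of all genes: -0.05 against 0.0, 0.13 against -0.02, 0.07 against 0.05, -0.04 against -0.10, and 0.01 against -0.05, in the same order. In these bulk libraries a change in the share of cells that are open and a change within cells cannot be told apart.

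In all, 23 members were called in at least 1 comparison, 8 of them in both directions, and 16 in none. Over all 19044 genes tested, 44.3% were called in at least 1 comparison and 8.55% in both directions, beside 59.0% and 20.5% of the 39 collagens. The 40 collagens held 743 regions, where 19571 genes with a region held 190637, so collagens had more regions per gene. Genes with as many regions were not compared, and the part of region number in these shares was not tested. The members never called were Col1a1, Col1a2, Col5a1, Col11a2 and Col24a1 among the fibrillar collagens, Col4a1, Col4a3 and Col4a5 of type IV, Col15a1, Col7a1, Col6a2, Col9a3, Col12a1, Col19a1, Col22a1 and Col17a1. Their log2 changes over the 5 comparisons ran from -0.70 (Col9a3) to 0.86 (Col7a1). A missed threshold does not show that they stayed level.

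**Figure D2:**
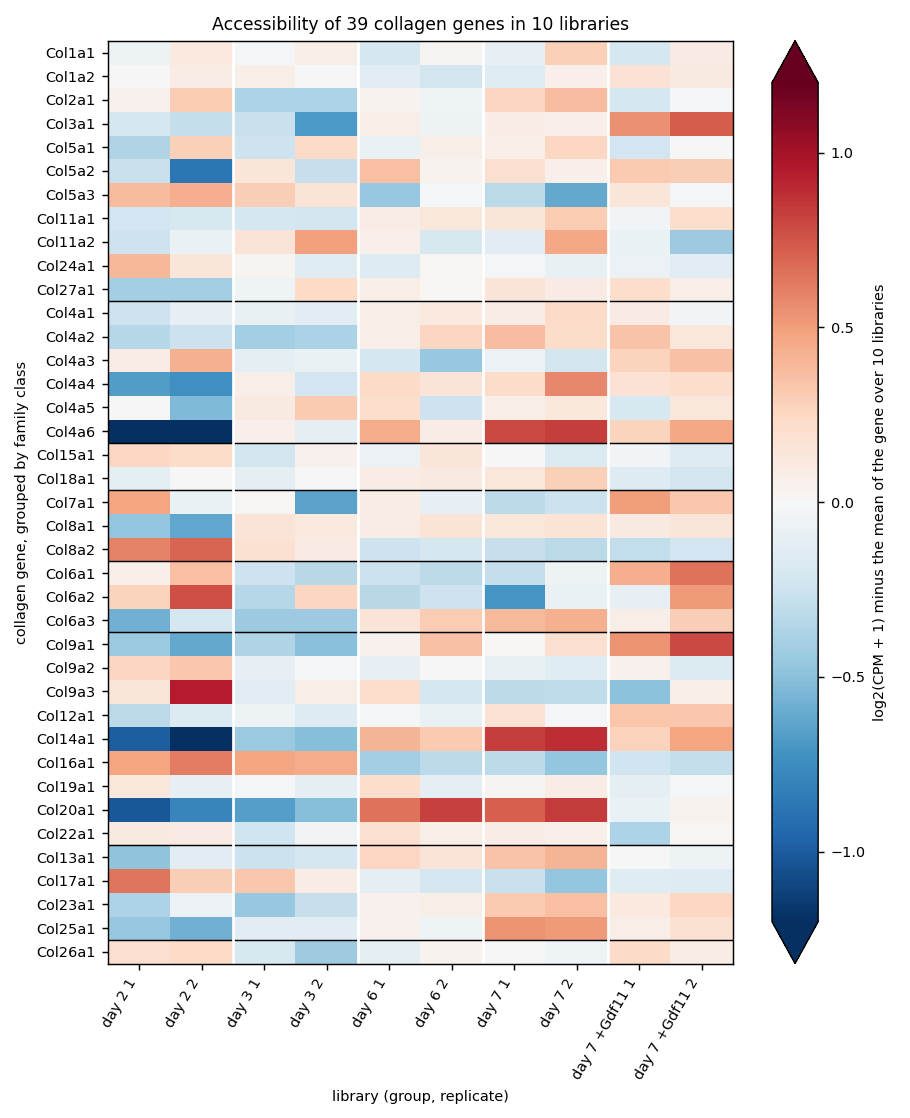
Accessibility of the 39 tested collagen genes (rows, grouped by family class) in the 10 libraries (columns), as log2(CPM + 1) minus the gene's mean over the libraries; colours past 1.2 in either direction are drawn at the end of the scale. Col14a1, Col20a1 and Col4a6 run from below their mean on day 2 to above it on day 7, and Col16a1 and Col8a2 run the other way.

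Of the 11 fibrillar collagens tested, 2 rose and 1 fell to day 3, 3 rose and 1 fell to day 6, 0 were called from day 6 to day 7 by edgeR (1 was higher at an unadjusted p under 0.05), and 2 were higher and 1 lower with Gdf11 than on day 7. Col2a1 moved in 3 comparisons. Col2a1, the cartilage and notochord fibre collagen, gave 104.5 and 125 CPM on day 2, 77.5 and 77.7 on day 3, 103.5 and 97.1 on day 6, 121 and 130.2 on day 7, and 86.7 and 99.3 with Gdf11. It fell to day 3 (log2 change -0.56 ± 0.10, adjusted p = 0.000102), rose to day 6 (0.37 ± 0.10, adjusted p = 0.00718), and was lower with Gdf11 than on day 7 (-0.43 ± 0.10, adjusted p = 0.00335). No pair of groups overlapped in these 3 comparisons. Its most open region, inside the gene (chr15:97990083-97990604), moved the same way, with means of 39.3 CPM on day 2, 17.6 on day 3, 32.65 on day 6, 48.95 on day 7 and 32.6 with Gdf11. It gave 58.38%, 66.23% and 50.6% of the gene's 3 changes. Shares of a change, here and below, divide a region's difference by the gene's net difference. Rises and falls of other regions cancel in that net value, so a share is not a part of a whole. It can exceed the net change, as for a region of Col20a1 with Gdf11 against day 7 (111.6%).

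Col3a1 and Col5a3 were the fibrillar members higher with Gdf11. Col3a1, the type III collagen of skin and vessel walls, gave 26.1 and 24.5 CPM on day 2, 24.9 and 18.3 on day 3, 31.8 and 28.7 on day 6, 32.0 and 31.5 on day 7, and 44.5 and 50.5 with Gdf11. The Gdf11 libraries stood above all 8 others, with log2 changes of 0.58 ± 0.14 against day 7 (adjusted p = 0.00648) and 0.64 ± 0.14 against day 6 (adjusted p = 0.0107), after a rise from day 3 to day 6 (0.47 ± 0.15, adjusted p = 0.0251). Against day 7, 11 of its 13 regions differed in the direction of the gene, and the region with the largest difference gave 19.64% of it. That region was not called (adjusted p = 0.337), and 1 of the 12 tested regions was called higher. The regions make up the gene's sum, so their agreement in sign is partly built in. Col5a3, a chain of the type V collagen that starts and limits fibre growth, went from 23.5 and 21.4 CPM on day 3 to 13.6 and 18.7 on day 6 (-0.50 ± 0.18, adjusted p = 0.0403), with 90.18% of that fall at its start site. It was at 14.9 and 12.1 CPM on day 7 and at 21.0 and 18.8 with Gdf11 (0.55 ± 0.18, adjusted p = 0.0404), with 45.21% of that difference from a region 8884 bp outside the span (chr9:20760775-20761166).

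The other fibrillar calls came from members called once. Col5a2, also of type V, gave 19.3 and 12.4 CPM on day 2 and 26.1 and 19.2 on day 3 (0.52 ± 0.19, adjusted p = 0.0416), and its groups overlapped. Col27a1, a minor fibrillar collagen of cartilage, gave 44.4 and 44.5 CPM on day 2 and 57.1 and 70.3 on day 3 (0.51 ± 0.12, adjusted p = 0.00196). Col11a1, which forms the core of cartilage fibres, gave 82.9 and 82.4 CPM on day 3 and 103 and 106 on day 6 (0.34 ± 0.10, adjusted p = 0.0134), with 96.18% of the rise at its start site. Col1a1 and Col1a2, the chains of type I collagen, were called in no comparison: their log2 changes lay between -0.15 and 0.19 and between -0.21 and 0.32.

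Of the 6 type IV collagens, 2 rose to day 3, 1 to day 6 and 1 to day 7, and 1 was lower with Gdf11 than on day 7. They held the largest change of the family between day 2 and day 3. Col4a6, a chain found in the basement membranes of smooth muscle and of some epithelia, gave 18.1 and 15.3 CPM on day 2 and 48.2 and 42.4 on day 3 (log2 change 1.44 ± 0.15, adjusted p = 2.36e-09). It went on from 63.2 and 49.0 CPM on day 6 to 80.4 and 82.5 on day 7 (0.53 ± 0.12, adjusted p = 0.00884), and was at 55.8 and 63.9 with Gdf11 (-0.45 ± 0.12 against day 7, adjusted p = 0.0141). Day 2 stood far below every later group, and 1 intragenic region (chrX:141458345-141459276), at 1.05 CPM in both day 2 libraries and 23.4 and 17.2 on day 3, gave 67.1% of that first rise. Col4a4, a kidney and inner ear chain, gave 23.3 and 22.2 CPM on day 2 and 39.5 and 31.9 on day 3 (0.66 ± 0.15, adjusted p = 0.00121). The rise of 1 region (chr1:82476391-82477117) equalled 99.27% of this net change, and 2 of the 12 tested regions of Col4a4 were called higher. Col4a2 gave 31.8 and 32.3 CPM on day 3 and 44.8 and 50.9 on day 6 (0.57 ± 0.13, adjusted p = 0.00137), with no region above 23.51% of the change. Its neighbour Col4a1 went from 51.0 and 49.4 to 57.2 and 59.2 CPM in the same comparison, without a call.

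Of the 9 FACIT collagens, 1 rose and 1 fell to day 3, 3 rose and 1 fell to day 6, 1 rose to day 7, and 1 was higher and 2 lower with Gdf11 than on day 7. They held the member that moved most often. Col14a1, which binds the surface of type I fibres, was called in 4 of the 5 comparisons and gave 38.4 and 32.4 CPM on day 2, 56.3 and 53.8 on day 3, 103 and 95.9 on day 6, 138 and 144 on day 7, and 93.6 and 107 with Gdf11. Each step of the untreated course was a rise without overlap: 0.63 ± 0.11 (adjusted p = 9.45e-05), 0.85 ± 0.11 (adjusted p = 1.84e-07) and 0.50 ± 0.10 (adjusted p = 0.00177) on the log2 scale. With Gdf11 it was lower than on day 7, by a log2 change of -0.49 ± 0.10 (adjusted p = 0.000974). A single region inside the gene (chr15:55440681-55441454) had mean levels of 1.69, 14.0, 46.9, 85.0 and 48.8 CPM in the 5 groups and gave 62.37%, 74.49% and 92.28% of the rises and 90.25% of the Gdf11 difference.

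Col20a1 and Col9a1 differed in direction with Gdf11. Col20a1, a FACIT collagen with few regions, gave 5.27 and 5.92 CPM on day 3, 14.5 and 16.4 on day 6, 15.3 and 16.6 on day 7, and 8.36 and 9.15 with Gdf11. It rose to day 6 (1.47 ± 0.23, adjusted p = 8.92e-06) and was lower with Gdf11 than on day 7 (-0.87 ± 0.21, adjusted p = 0.0057) and than on day 6 (-0.82 ± 0.21, adjusted p = 0.0325). The Gdf11 libraries lay between those of day 3 and day 6 without overlap. Its region chr2:181006980-181007405 went from 10.8 and 13.0 CPM on day 7 to 3.46 and 4.2 with Gdf11 (-1.63 ± 0.30, adjusted p = 0.000175). Col9a1, a type IX chain that decorates cartilage fibres, gave 18.9 and 17.0 CPM on day 3, 25.4 and 31.6 on day 6 (0.65 ± 0.16, adjusted p = 0.00387), 24.7 and 28.1 on day 7 and 36.0 and 43.2 with Gdf11 (0.59 ± 0.15 against day 7, adjusted p = 0.00968). Its partner chain Col9a2 was called once, falling from 45.5 and 47.7 CPM on day 2 to 35.3 and 37.5 on day 3 (-0.36 ± 0.13, adjusted p = 0.044), and Col9a3 never.

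Col16a1, another FACIT collagen, showed the largest fall of the untreated course. It gave 55.3 and 60.9 CPM on day 2, 55.2 and 54.3 on day 3, and 29.5 and 31.6 on day 6 (-0.85 ± 0.13, adjusted p = 5.75e-06), and stayed between 28.4 and 33.3 afterwards. A region 2800 bp outside the span (chr4:130102077-130102744), at 30.4 CPM on day 3 and 9.69 on day 6, gave 85.56% of the fall. With regions inside the span alone, the change was -0.08 (adjusted p = 0.847).

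Among transmembrane collagens, Col25a1, Col13a1 and Col23a1 rose and Col17a1, a hemidesmosome protein, was never called. Col25a1, a neuronal collagen that guides motor axons to muscle, gave 72.0 and 66.4 CPM on day 2, 91.0 and 90.1 on day 3, 103 and 95.5 on day 6, 144 and 142 on day 7, and 105 and 113 with Gdf11. It rose to day 3 (0.39 ± 0.10, adjusted p = 0.00383) and from day 6 to day 7 (0.52 ± 0.09, adjusted p = 0.000372), and was lower with Gdf11 than on day 7 (-0.40 ± 0.09, adjusted p = 0.00347). Different regions carried these steps: the start site gave 80.93% of the first rise, while 2 intragenic regions opened later. The first of them (chr3:130385876-130386256) was at 0.42 and 0.29 CPM on day 3, 10.7 and 8.89 on day 6, 20.5 and 20.3 on day 7 and 10.9 and 11.0 with Gdf11, and the other (chr3:130401302-130401847) rose from 10.6 and 9.44 on day 6 to 21.6 and 23.7 on day 7.

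Col13a1, a collagen of the neuromuscular junction, gave 62.2 and 64.7 CPM on day 3, 88.7 and 83.5 on day 6, 95.0 and 99.7 on day 7, and 74.7 and 71.6 with Gdf11. Its rise to day 6 (0.44 ± 0.11, adjusted p = 0.00293) and its lower level with Gdf11 (-0.41 ± 0.11, adjusted p = 0.00916) both centred on 1 region (chr10:61879349-61879861), with means of 5.33 CPM on day 3, 21.3 on day 6, 27.5 on day 7 and 12.5 with Gdf11. Col23a1 gave 58.2 and 66.1 CPM on day 3 and 82.8 and 84.0 on day 6 (0.43 ± 0.11, adjusted p = 0.00377). Of the multiplexins, basement membrane collagens that carry sugar chains, Col18a1, the source of endostatin, gave 155 and 171 CPM on day 7 and 126 and 121 with Gdf11 (-0.40 ± 0.09, adjusted p = 0.00201). Of its 48 regions 30 differed in the direction of the gene, and the region with the largest difference gave 20.0% of the gene's difference. That region was not called (adjusted p = 0.0732), and neither was any other of the 38 tested. The regions make up the gene's sum, so their agreement in sign is partly built in. The share of such regions over all genes was not counted.

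**Figure D3:**
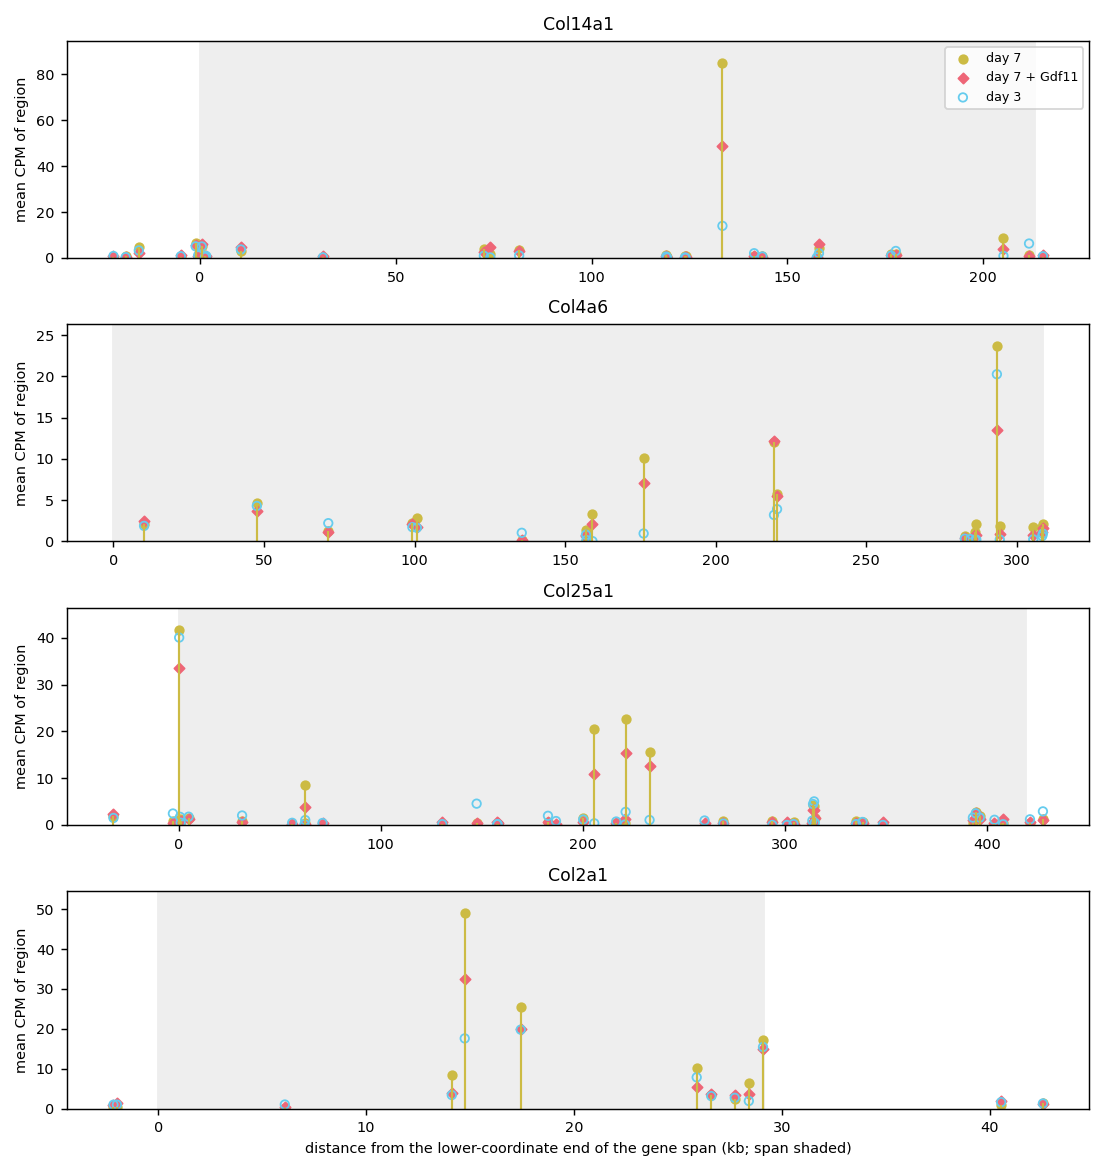
Mean CPM of each region (vertical axis) against its distance from the lower-coordinate end of the gene span in kb (horizontal axis; span shaded) for Col14a1, Col4a6, Col25a1 and Col2a1, on day 3, day 7 and day 7 with Gdf11. In Col14a1 a single region at 85.0 CPM on day 7 stands above all others, and in Col25a1 the intragenic regions that opened after day 3 stand apart from the start site.

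Network, microfibrillar and other collagens made up the rest. Col8a1 and Col8a2, the chains of the type VIII collagen of vessels and cornea, changed in opposite directions from day 2 to day 3. Col8a1 went from 22.3 and 20.0 CPM to 35.0 and 34.1 (0.71 ± 0.14, adjusted p = 0.000448), and Col8a2 from 52.5 and 56.5 to 39.2 and 37.1 (-0.51 ± 0.13, adjusted p = 0.0039). Col8a2 fell again to 28.9 and 29.8 CPM on day 6 (-0.38 ± 0.13, adjusted p = 0.0372). Col6a1, a chain of the type VI microfilaments, gave 16.1 and 20.0 CPM on day 2, 12.8 and 12.0 on day 3 (-0.53 ± 0.19, adjusted p = 0.0399), 12.7 and 12.2 on day 6, 12.4 and 14.7 on day 7, and 21.2 and 24.8 with Gdf11. The Gdf11 level was above day 7 (0.77 ± 0.18, adjusted p = 0.00448) and day 6 (0.88 ± 0.18, adjusted p = 0.00546), and above every other library. Of its 8 regions 2 lay inside the span. Its neighbour Col6a2 gave 6.3 and 10.3 CPM on day 7 and 10.1 and 16 with Gdf11, with overlap and no call (log2 change 0.69). Col6a3 gave 18.9 CPM in each day 3 library and 28.9 and 32.1 on day 6 (0.69 ± 0.16, adjusted p = 0.00167). Col26a1 fell from 62.8 and 64.6 CPM on day 2 to 47.6 and 40.6 on day 3 (-0.52 ± 0.12, adjusted p = 0.00164). Col7a1, of the anchoring fibrils of skin, had the largest log2 change among members not called with Gdf11 (0.86, with 3.51 and 3.68 CPM on day 7 and 6.92 and 6.03 with Gdf11), on few counts.

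**Figure D4:**
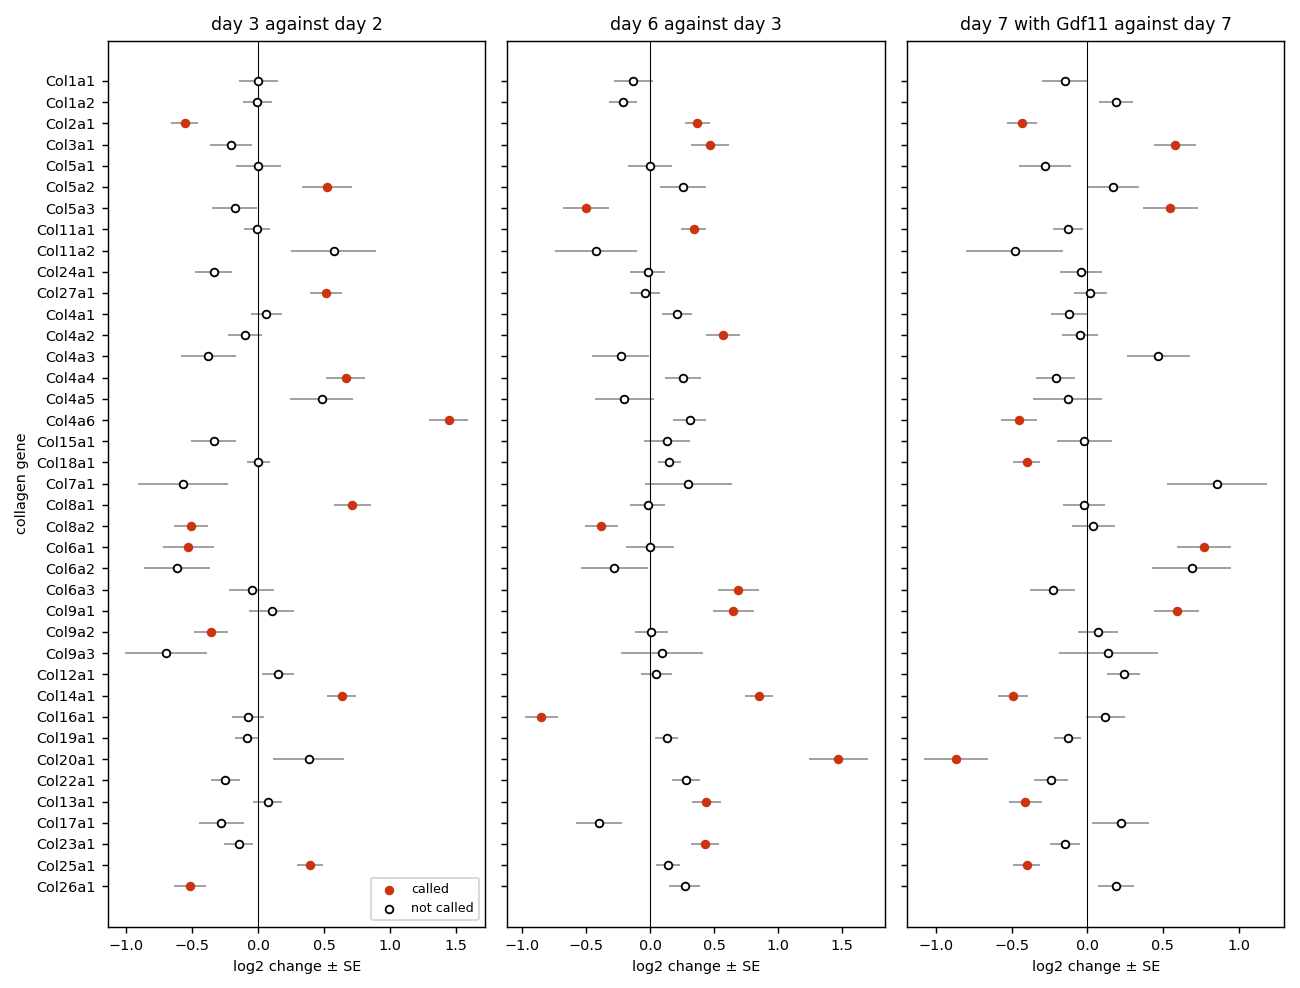
Log2 change with its SE (horizontal axis) of each of the 39 tested collagen genes (vertical axis) in 3 comparisons; red points passed the edgeR test at an adjusted p of 0.05. Col4a6 leads the changes to day 3, Col20a1 and Col16a1 those to day 6, and 11 members are red in the panel for Gdf11.

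Put side by side, 11 members differed between day 7 with and without Gdf11. The 7 lower were Col14a1, Col18a1, Col2a1, Col25a1, Col20a1, Col13a1 and Col4a6, and the 4 higher were Col6a1, Col3a1, Col9a1 and Col5a3. The day 6 to day 7 and the Gdf11 comparisons share the day 7 libraries, so their directions are not independent. For Col14a1, Col25a1 and Col4a6 the log2 changes from day 6 to day 7 were 0.50, 0.52 and 0.53, and those of Gdf11 against day 7 were -0.49, -0.40 and -0.45. Against day 6, where no day 7 library enters, the calls were Col6a1, Col3a1 and Col20a1. In the Gdf11 comparison the direction of the counts depended on the scaling: with TMM factors the median of all genes was -0.099 and 15.5% of all called genes were higher, and with library size alone it was 0.058 and 62.5%. With library size alone 8 collagens were higher and 2 lower, and Col2a1, Col4a6, Col13a1, Col18a1 and Col25a1 missed the threshold (adjusted p between 0.0522 and 0.114), with the sign of each gene's change unchanged. Col14a1 was the member of the 11 whose call was kept in every alternative tried and without each library.

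**Figure D5:**
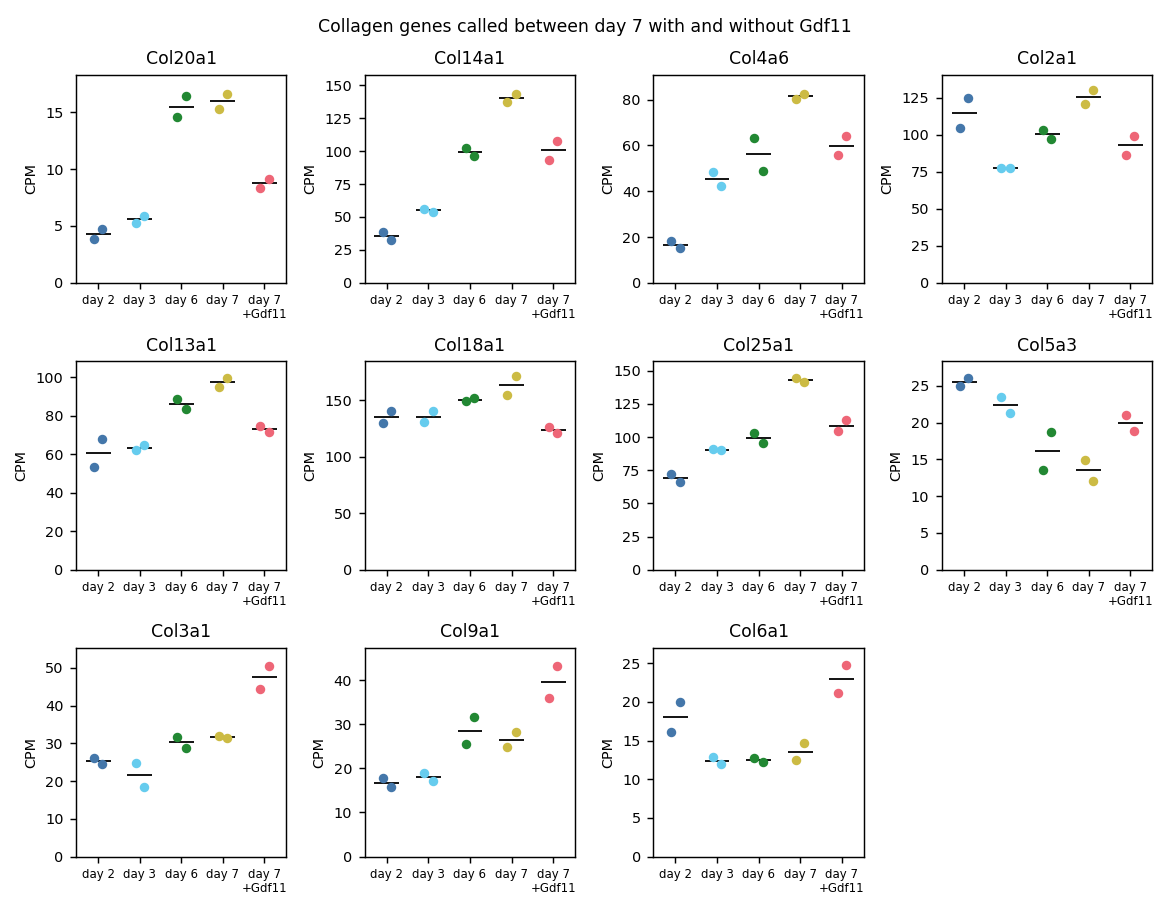
CPM per library (vertical axis) of the 11 collagen genes that differed between day 7 with and without Gdf11, in the 5 groups (horizontal axis); points are libraries and lines are group means. The Gdf11 libraries lie below the day 7 libraries in 7 genes and above them in 4, with TMM scaling; with library size alone 5 of the 7 lower genes missed the threshold.

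Single libraries mattered for many calls. Of the 12 calls of day 3 against day 2, 6 were kept without each of the 4 libraries in turn. Lost were Col25a1 (adjusted p = 0.0892), Col5a2 (0.533), Col6a1 (0.199) and Col9a2 (0.0926) without day 2 replicate 2, Col9a2 (0.0747) without day 2 replicate 1, Col4a4 (0.0701), Col5a2 (0.549), Col6a1 (0.0755) and Col9a2 (0.147) without day 3 replicate 1, and Col27a1 (0.0703), Col6a1 (0.122) and Col9a2 (0.0604) without day 3 replicate 2. Of the 13 calls of day 6 against day 3, 6 were kept. Col23a1 (0.069), Col5a3 (0.211) and Col8a2 (0.188) were lost without day 3 replicate 1, Col11a1 (0.0558), Col3a1 (0.294) and Col8a2 (0.0502) without day 3 replicate 2, Col2a1 (0.0754), Col3a1 (0.192), Col5a3 (0.525) and Col8a2 (0.223) without day 6 replicate 1, and Col11a1 (0.0789), Col9a1 (0.0841) and Col8a2 (0.101) without day 6 replicate 2. Col3a1 and Col6a3 also missed the threshold there with regions inside the span alone (adjusted p = 0.101 and 0.0959) or within 10000 bp (0.0899 and 0.0621). Of the 3 calls of day 7 against day 6, Col4a6 was lost without day 6 replicate 2 (0.19) or day 7 replicate 2 (0.0805).

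With Gdf11 against day 7, 3 of the 11 calls were kept without each library: Col14a1, Col18a1 and Col25a1. All 4 higher calls were lost without day 7 replicate 1, and all 4 also without Gdf11 replicate 2. Without day 7 replicate 1 the adjusted p was 0.0509 for Col3a1, 0.0589 for Col4a6, 0.0595 for Col5a3, 0.0893 for Col6a1 and 0.133 for Col9a1. Without Gdf11 replicate 2 it was 0.0822 for Col3a1, 0.0642 for Col5a3, 0.0571 for Col6a1 and 0.13 for Col9a1. Without day 7 replicate 2, Col13a1 (0.0638), Col3a1 (0.0731), Col4a6 (0.0736) and Col5a3 (0.3) were lost, and without Gdf11 replicate 1, Col20a1 (0.0727), Col2a1 (0.0653), Col4a6 (0.159) and Col5a3 (0.292). With regions inside the span alone, Col3a1 (0.0785), Col5a3 (0.333) and Col6a1 (0.89) were lost. Against day 6, each of the 3 calls was lost without at least 3 of the 4 libraries, with adjusted p between 0.0604 and 0.25 where lost.

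By region, 524 of the 743 member regions were tested. From day 2 to day 3, 37 rose and 14 fell, against 8.76% and 4.31% of all 174851 regions tested, and from day 3 to day 6, 67 rose and 22 fell, against 9.12% and 5.98%. From day 6 to day 7 the counts were 5 and 2, against 0.971% and 0.207%. With Gdf11 they were 7 higher and 12 lower against day 7, where 1.07% and 2.63% of all regions were called, and 7 and 4 against day 6, where 1.05% and 1.33% were. Leaving out 1 library lowered these counts, from day 2 to day 3 to 22 higher without day 2 replicate 1, and from day 3 to day 6 to 44 higher without day 6 replicate 1 and to between 9 and 13 lower without each library in turn. For Gdf11 against day 7, the 7 higher became 0 without Gdf11 replicate 1 and at most 4 otherwise, and the 12 lower became 4 without day 7 replicate 2 or Gdf11 replicate 1. Against day 6 at most 3 higher and 2 lower remained without any 1 library, and from day 6 to day 7 between 2 and 5 higher and 1 or 2 lower.

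The calls were also counted by place. Start sites were known for the 31 members with a promoter window, so starts of the other members fall under the other places. Of the 26 tested start-site regions, 3.85% were called from day 2 to day 3 and 0% between day 7 with and without Gdf11 by the edgeR test, where the smallest adjusted p was 0.0817 (Col13a1). Regions that reach a promoter window without covering its start fall under the other places. A region of Col7a1 of this kind was called higher with Gdf11 than on day 7 and is given below. Elsewhere inside the spans, 12.03% of 374 regions were called from day 2 to day 3, 18.18% from day 3 to day 6, where start sites were at 15.38%, and 4.28% with Gdf11 against day 7. Outside the spans the shares of 124 regions were 4.03%, 13.71% and 2.42%. From day 6 to day 7, 3.85% of start sites (1 region, Col15a1), 1.60% of regions elsewhere inside and 0% outside were called. With Gdf11 against day 6 the shares were 3.85% (1 region, Col13a1), 2.14% and 1.61%. The order of the places differed between comparisons. In these last comparisons the start-site share rested on a single region near the threshold (adjusted p = 0.0494 and 0.0474). Over all 12402 tested start-site regions, 9.78%, 10.1%, 0.508%, 3.09% and 0.589% were called in the 5 comparisons, from day 3 against day 2 to Gdf11 against day 6. The difference between places was not tested.

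Regions were also called in members that were called in no comparison as genes. In Col19a1, an intragenic region (chr1:24286302-24286759) went from 0 and 1.05 CPM on day 2 to 6.63 and 8.08 on day 3 (adjusted p = 3.78e-09), and another (chr1:24553505-24553873) stood at 4.47 and 2.74 CPM on day 6 and at 11.0 and 11.5 with Gdf11 (log2 change 1.59 ± 0.31). In Col22a1, a collagen of the muscle-tendon junction, a region 7540 bp outside the span (chr15:72158519-72158906) fell from 19.0 and 17.3 CPM on day 2 to 6.46 and 6.06 on day 3 (-1.53 ± 0.29). In Col1a2, a region 16964 bp outside the span (chr6:4488440-4488654) was at 1.44 and 0.82 CPM on day 6 and at 4.98 and 4.74 with Gdf11 (2.03 ± 0.48). In Col12a1, which binds type I fibres, an intragenic region (chr9:79690220-79690542) was at 0 and 0.13 CPM on day 2 and at 0.76 and 1.3 on day 3, on few counts. A region 214 bp outside the span of Col7a1 (chr9:108953114-108953372) was at 1.08 and 0.74 CPM on day 7 and at 3.71 and 3.34 with Gdf11 (1.90 ± 0.52, adjusted p = 0.0219). It overlapped the promoter window of Col7a1 by 37 bp but did not cover the start.

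Some regions of called genes moved against the gene or beyond it. In Col4a4 a region (chr1:82474451-82474982) went from 17.0 and 21.2 CPM on day 7 to 7.51 and 8.18 with Gdf11 (-1.28 ± 0.24), though the gene was not called in that comparison. In Col11a1 an intragenic region (chr3:114142347-114142733) fell from 11.0 and 13.3 CPM on day 2 to 4.25 and 2.45 on day 3 (-1.80 ± 0.33) while the start site did not fall. In Col14a1 another intragenic region (chr15:55519213-55519553) fell from 7.05 and 5.48 CPM on day 3 to 2.16 and 0.96 on day 6 (-1.93 ± 0.44) as the gene rose. In Col4a6 a second region (chrX:141384488-141385057) rose from 7.03 and 2.74 CPM on day 6 to 10.4 and 13.7 on day 7 (1.21 ± 0.31), and a region listed at 0.08 and 0 CPM on day 3 (chrX:141324323-141324641) was at 3.76 and 4.65 on day 6.

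Other genes of collagen biology were taken from 5 lists of 88 genes, of which 86 were tested. In these lists 14 rose and 18 fell from day 2 to day 3, where 12.3% and 10.4% of all genes did. From day 3 to day 6, 16 rose and 7 fell, beside 9.47% and 10.7% of all genes, and from day 6 to day 7, 5 rose and 1 fell, beside 3.58% and 0.677%. With Gdf11 against day 7, 3 were higher and 14 lower, beside 2.05% and 11.2% of all genes. With library size alone the last counts were 9 and 3, so their direction too depended on the scaling. Against day 6, 2 were higher and 3 lower with Gdf11, beside 0.614% and 1.27%. The counts by list below are to be read against these same shares.

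Of the 29 collagen-modifying enzymes and chaperones tested, 0 were higher and 2 lower with Gdf11 against day 7. Serpinh1, the collagen chaperone Hsp47, rose from 86.8 ± 3.26 CPM (SD, n = 2) on day 6 to 113 ± 3.76 on day 7 (0.39 ± 0.10, adjusted p = 0.014), and was at 85.2 ± 1.27 with Gdf11 (-0.41 ± 0.10, adjusted p = 0.00384). Loxl4, a crosslinking oxidase, went from 23.8 ± 1.27 on day 7 to 15.5 ± 0.76 CPM with Gdf11 (-0.61 ± 0.17, adjusted p = 0.0124). Earlier, the crosslinking oxidase Loxl1 fell to day 3 (-0.76 ± 0.13, adjusted p = 5.84e-05) and the prolyl 3-hydroxylase P3h2 rose to day 6 (0.69 ± 0.11, adjusted p = 9.27e-06). Loxl2 and the receptor gene Gp6 had no assigned region. Among the 9 collagen receptors tested, 1 was higher and 1 lower with Gdf11 against day 7: Ddr2, a receptor for fibrillar collagens, was at 18.4 ± 2.33 CPM on day 7 and 26.3 ± 1.18 with Gdf11 (0.53 ± 0.16, adjusted p = 0.0203), and its relative Ddr1 at 128 ± 8.55 and 102 ± 3.82 (-0.33 ± 0.10, adjusted p = 0.0185). From day 6 to day 7 the pair also moved in opposite directions, with Ddr1 up by 0.54 and Ddr2 down (-0.62 ± 0.16, adjusted p = 0.0162).

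Basement membrane partners gave 0 higher and 4 lower of 22 with Gdf11 against day 7, where 2.05% of all genes were higher and 11.2% lower. Lama1, the laminin chain of early embryonic basement membranes, went from 100.2 ± 4.93 to 74.5 ± 0.573 CPM (-0.43 ± 0.10, adjusted p = 0.00352), and Lama5 from 74.0 ± 0.243 to 54.9 ± 11.3 (-0.44 ± 0.11, adjusted p = 0.00949). Sparc, a collagen-binding matrix protein, was higher with Gdf11 than on day 6 (0.44 ± 0.12, adjusted p = 0.0348). From day 2 to day 3 Lama2 rose (0.89 ± 0.12, adjusted p = 4.97e-07) and Lama4 fell (-0.85 ± 0.13, adjusted p = 1.4e-05). Of 14 matrix proteases and inhibitors, 2 were higher and 2 lower with Gdf11 against day 7. Timp3, an inhibitor, went from 80.0 ± 6.24 to 49.1 ± 4.33 CPM (-0.70 ± 0.12, adjusted p = 6.91e-05), and Mmp8, a collagenase, from 5.35 ± 0.0677 to 12.8 ± 0.181 (1.25 ± 0.26, adjusted p = 0.0014).

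Cartilage and sclerotome factors gave 0 higher and 5 lower of 12 with Gdf11 against day 7, beside 2.05% and 11.2% of all genes, with a median log2 change of -0.33 beside -0.10 for all genes. Sox9, the activator of Col2a1 in cartilage, went from 117 ± 21.4 to 78.9 ± 1.39 CPM (-0.56 ± 0.11, adjusted p = 0.000564), and Sox6, its partner, from 319 ± 3.66 to 236 ± 6.64 (-0.44 ± 0.08, adjusted p = 0.000204). Sox5, another partner of Sox9, rose in each of the 3 steps, from 214 ± 7.90 CPM on day 2 to 551 ± 32.7 on day 7. Against day 6 the Gdf11 call was Pax1 (-0.48 ± 0.13, adjusted p = 0.047).

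Marker genes were summed to describe the cells. The counts below stand beside 12.3% of all genes higher and 10.4% lower to day 3, and 9.47% and 10.7% to day 6. To day 7 the shares were 3.58% and 0.677%, and for Gdf11 against day 7 they were 2.05% and 11.2%. Of 12 caudal epiblast and progenitor markers 8 rose and none fell from day 2 to day 3, and all 8 epiblast markers fell, and the lowest value of any caudal marker in any library was 10.98 CPM (Cdx1). From day 3 to day 6, 1 caudal marker rose and 6 fell, 5 of 8 neural markers rose, and 3 of 12 fibroblast markers rose and 1 fell. From day 6 to day 7, when 3 collagens rose, 4 of 8 neural markers rose (sums from 1022 and 963 CPM to 1286 and 1390.0) and 3 of 10 paraxial markers rose. With Gdf11 against day 7, the caudal sum went from 773 and 861 CPM to 565 and 579 (8 of 12 lower), the neural sum to 809 and 892 (7 of 8 lower), and the paraxial mesoderm sum from 508 and 541 to 345 and 374 (5 of 10 lower). In this comparison 391 of all genes were higher and 2137 lower with TMM factors, and 985 and 592 with library size alone. The direction of the marker counts may depend on the scaling too. The paraxial marker Tbx6 was at 0 to 2.45 CPM. For fibroblast markers, listed because feeder cells express many collagens, the sums were 310 to 343 CPM on day 2, 426 and 443 on day 7 and 381 and 394 with Gdf11, with 1 higher and 2 lower of 12 against day 7. Endoderm sums lay between 264 and 319 CPM, endothelium between 154 and 175, and neural crest between 356 and 443. Accessibility of a marker's surroundings does not count cells, and the part of these sums in the collagen results was not tested. Regions on the mitochondrial chromosome took between 9.25% and 13.42% of the counts, and leaving them out moved none of the collagen counts by over 1.5 times.

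The genes whose course over the 5 group means was most like that of Col14a1, by Pearson correlation of log2 CPM over 5 groups, were Rdh5 (0.9998), Rmnd5a (0.9995) and Hgsnat (0.9994). Their levels moved over a smaller range: Rdh5 had means of 10.8, 12.4, 14.6, 16.4 and 15.2 CPM, and Rmnd5a of 67.8, 85.1, 111, 129 and 111. The 2 Gdf11 libraries of Rdh5 lay far apart, at 11.6 and 18.8 CPM, and those of Rmnd5a were at 99.4 and 123. A correlation over 5 points, all from the same libraries, describes the shape of the means alone.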

How the data were processed

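The 10 libraries are ATAC-seq of 1 cell line in 5 groups of 2. Per the submitters' processing notes, which give no roles or order, the tools were MACS2 2.1.1.20160309, HOMER 4.10, HISAT2 2.1.0, bedtools and SAMtools, with build mm10; the tool that counted reads is not given in the sources used here. The deposited files hold raw counts per numbered region for each library, and peak lists with the authors' fold enrichment (a ratio) and −log10 q value per peak, which were called per library. The deposited −log10 values set no threshold here, and the authors' fold enrichment was not tested.

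The counts were tied to positions by merging the 10 deposited peak lists, chromosomes in character order, which gave 246799 regions, as many as each count file has rows; no region with a library's own peak had a count of 0 in it. Of these, 190637 lay within 50000 bp of a protein-coding span (GRCm38.p6, the mm10 assembly), and a region inside several spans went to the shortest; 2 regions inside a collagen span went to a neighbouring collagen in this way. edgeR 4.0.16 in R 4.3.3 fitted all 10 libraries with 1 mean per group, TMM factors from the regions and the default filter on low counts (71948 regions removed). P-values were adjusted by Benjamini-Hochberg over 19044 genes or 174851 regions. CPM use the TMM-scaled library sizes, SE is the log2 change over the square root of F, and ± after a mean is the SD. Alternatives were library size alone, RLE factors, no filter, DESeq2 1.42.0, only the groups compared, a replicate block, a window of 10000 bp, regions inside spans alone, mitochondrial regions left out, and each library left out. The gene test was also run on simulated gene sums for Gdf11 against day 7. It called 42% of genes with a true log2 change of -0.5 and 54% of those with 0.5. At -1 and at 1 it called 92%. Of 18910 genes in that run, 7 without a true change were called. The simulated libraries differed between groups in these changes alone, apart from library size, and were fitted without TMM factors. Genes with a low mean count were given no true change. The run therefore does not give the error of the test with TMM factors, nor its power for genes with few counts. Many changes of the size seen here may be missed.

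Genes were named as follows: members called in at least 1 comparison, up to 10 a comparison by smallest p, and the 2 a comparison with the largest absolute log2 change; up to 3 regions a direction and comparison above the median abundance; up to 2 partners a list and comparison by smallest p; and the 3 genes most like the member with the smallest p for Gdf11. Members beyond these, start-site regions and the regions that carried a gene's change were chosen after their values were seen. The members and lists were chosen with earlier results of these data known.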

Additional observations from a re-analysis of the deposited data

How the results depend on the processing

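No gene result changed direction. Of 387 alternative values of the named gene results, 352 kept their side of the threshold and 35 lost it, and of 172 values without 1 library, 118 kept it and 54 lost it; 13 of the 42 gene calls were kept throughout. Counts below are higher or lower calls. Without each library in turn, member genes ranged from 5 to 7 higher and 4 to 6 lower (day 3 against day 2), 8 to 9 and 1 to 2 (day 6 against day 3), 2 to 3 and 0 to 0 (day 7 against day 6), 0 to 4 and 4 to 8 (Gdf11 against day 7), and 0 to 2 and 0 to 1 (Gdf11 against day 6). Member regions ranged, in the same order, from 22 to 30 and 11 to 14, 44 to 54 and 9 to 13, 2 to 5 and 1 to 2, 0 to 4 and 4 to 8, and 1 to 3 and 0 to 2. With only the groups compared, genes gave 3 lower at day 3, 1 lower at day 6, 5 higher at day 7 and 5 higher for Gdf11 against day 6, and regions 14 higher for Gdf11 against day 7 and 15 higher and 8 lower against day 6. DESeq2 gave 3 genes lower at day 3, 1 lower at day 6 and 0 lower for Gdf11 against day 6, and 21 and 8 regions at day 3, 9 lower at day 6, 0 lower at day 7, 0 and 7 for Gdf11 against day 7 and 1 and 1 against day 6. The 10000 bp window gave 3 genes lower at day 3, 1 higher for Gdf11 against day 6, and there 0 partners higher and 1 lower. Library size alone gave 8 and 2 genes for Gdf11 against day 7 and 5 and 0 against day 6, 3 regions higher at day 7, 4 lower for Gdf11 against day 7 and 2 lower against day 6, and partners of 1 and 3 at day 7 and 9 and 3 for Gdf11. It moved the share of called genes that were higher from 84.1% to 51.7% at day 7 and from 32.6% to 57.8% for Gdf11 against day 6, and RLE factors moved it from 54.2% to 41.6% at day 3. Inside spans alone, 1 gene was higher for Gdf11 against day 7 and 0 and 0 against day 6, and partners gave 3 lower at day 6, 3 higher at day 7, 9 lower for Gdf11 and 1 and 1 against day 6. RLE factors gave 1 region lower at day 7 and 1 partner lower for Gdf11 against day 6. The cause of these moves was not tested. Partners were not run without single libraries or with the block.

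With the replicate number as a block, 8 genes were lower at day 3, 5 higher at day 7, and 6 higher and 3 lower for Gdf11 against day 6. Same-numbered libraries of different groups had deviations correlated between 0.006 and 0.19, so the numbers are not shown to pair the libraries. With 2 libraries a group, a missing call does not show that a gene stayed level.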
